A study of Drosophila melanogaster with 9 samples.

Results

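Embryos mutant for *pri* were set directly against embryos mutant for *ken*, without use of the control samples of the series. The *pri* embryos carried the S18.1 allele (pri S18.1), and the *ken* embryos carried the ken1 allele over the deficiency Df(2R)BSC660, which deletes *ken* and neighbouring genes. RNA came from pools of 200 whole embryos of stage 16, sorted by hand through a GFP balancer, with 3 samples of each mutant, so 6 of the 9 samples of the series were used. Of the 15228 genes of the count table, 15149 had at least 1 count in these 6 samples and all of these were compared. Each genotype is a single allele or allele combination, the chromosomes other than the lesions may differ between the stocks, and a difference between the mutants does not say which of them departs from control embryos. In whole embryos, fewer cells of a type and less RNA per cell cannot be told apart.

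*pri*, also called *tarsal-less* or *polished rice*, encodes very short peptides that are made in response to the steroid hormone ecdysone. In the embryonic epidermis these peptides trigger, through the ubiquitin ligase Ubr3 and the proteasome, the trimming of the transcription factor Shavenbaby (a product of *ovo*) into an activator of genes that build trichomes, the actin-rich hairs of the larva. *ken* (*ken and barbie*) encodes a zinc finger protein with a BTB domain, a class that often represses transcription. The same epidermal cells secrete the cuticle, a layered coat of chitin, cuticle proteins and lipids that is later hardened and coloured by tanning enzymes.

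Below, levels are the authors' normalized counts of each sample (samples 1, 2 and 3 of *pri*, then samples 1, 2 and 3 of *ken*), fold changes are *pri* over *ken* on the log2 scale with their standard error, and genes with an adjusted p below 0.05 are those called (edgeR quasi-likelihood test, Benjamini-Hochberg over all 15149 genes, two-sided, n = 3 samples each). Called higher in *pri* mutants were 324 genes, or 2.14% of those tested, and called lower were 428 genes, or 2.83%. At an unadjusted p below 0.05, 18.9% of genes passed in either direction, and in 26.6% the groups did not overlap. The groups did not overlap in any called gene, so non-overlap adds nothing to a call. The median log2 fold change of all genes was −0.01. Changes above 1 on the log2 scale were found in 187 of the genes called higher and 313 of those called lower, and changes above 4 in 15 and 27.

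The libraries held 21310155 to 22243212 counts in *pri* and 23036142 to 28859395 in *ken* mutants. On the principal components of log2 CPM over 11048 genes, the first component (48.4% of the variance) separated the mutants, and the second (36.6%) varied within each of them, with *pri* 1 and *ken* 1 at its high end. Samples 1 of the mutants deviated together, as did samples 2 (correlation 0.567 and 0.551). Samples 3 did so less (0.131), and *pri* 3 correlated better with *ken* 2 (0.371). The labels do not say what a number marks, so a pairing of the samples is not established. With sample number taken as a replicate block in the fit, 728 genes were higher and 757 lower (4.81% and 5.0% of those tested). Among them were 315 and 419 of the genes called without the block. DESeq2 called 653 higher and 667 lower (4.31% and 4.4%). Leaving out *pri* 2, *pri* 3 or *ken* 3 lowered the counts to 151, 122 and 96 higher and 206, 170 and 147 lower, and without *ken* 1 or *ken* 2 the genes called higher numbered 198 and 179. With *pri* 1 and *ken* 1 both left out, 407 were higher and 490 lower. Of the genes called, 80 higher and 130 lower kept their call in every fit without 1 sample.

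**Figure D1:**
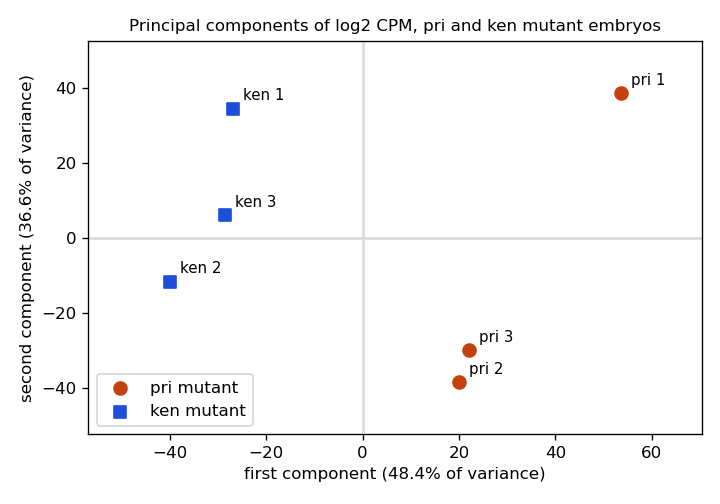
Each point is one sample, orange circles for *pri* mutants and blue squares for *ken* mutants, placed by its first (x axis) and second (y axis) principal component of log2 CPM. The mutants are apart on the first component, and *pri* 1 and *ken* 1 lie highest on the second.

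*ken* itself was counted in every sample, at 5678, 8132 and 7179.6 normalized counts in *pri* mutants, against 1197, 1184 and 1338 in *ken* mutants (log2 fold change 2.47 ± 0.14, adjusted p = 0.0016, edgeR). It lies on 2R of the genome build dm6 (2R, 23870273 to 23877442), and the call held under every alternative. The deficiency leaves *ken* mutants with 1 copy of each gene that it deletes. Of 24 genes tested that begin within 100 kb before *ken*, 8 were higher and none lower in *pri* mutants, and the median stood at 0.77. *gbb*, which encodes a BMP ligand, had 1648, 1911 and 1897 normalized counts in *pri* mutants, against 821, 1007 and 1005 in *ken* mutants (log2 fold change 0.93 ± 0.11, adjusted p = 0.00716, edgeR). *CG5554*, *Cpes* (ceramide phosphoethanolamine synthase) and *Pym* (a factor of the exon junction complex) had log2 fold changes of 0.76, 0.81 and 0.97. All 3 were called, *Pym* not without *ken* 3 (adjusted p = 0.0597, edgeR, 9.57e-08 to 0.0597 over the alternatives).

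The genes after *ken* did not form one block. Of 34 tested, 3 were higher in *pri* mutants, 3 were lower, and the median was 0.09. *DNAlig1*, which encodes DNA ligase 1 and lies about 20.2 kb away, had 246, 418 and 428 normalized counts in *pri* mutants, against 2108, 2433 and 1757 in *ken* mutants (log2 fold change −2.55 ± 0.23, adjusted p = 0.00319, edgeR), so it ran against the genes on the other side. *CG17658* had 1.15, 2.12 and 5.23 normalized counts in *pri* mutants, against 91.3, 105 and 80.96 in *ken* mutants (log2 fold change −4.97), and *Lpt*, a trithorax-related gene, a log2 fold change of −0.63, not called without *ken* 3 or *pri* 3 (adjusted p = 0.0586 and 0.0654). *Fmo-1*, a flavin monooxygenase gene 92.7 kb away, was higher, at 938, 962 and 949 normalized counts in *pri* mutants, against 337, 248 and 328 in *ken* mutants. The calls of *DNAlig1*, *CG17658* and *Fmo-1* held in every alternative.

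Counts of *pri* were not analysed here. Beside *pri* on 3R, the gene *Nsf2*, which encodes a factor of membrane fusion (3R, 13833497 to 13837991), had 49.3, 135 and 167 normalized counts in *pri* mutants, against 2374, 2739.6 and 2391 in *ken* mutants (log2 fold change −4.43 ± 0.41, adjusted p = 0.00319, edgeR). Of 15 genes tested within 100 kb on either side of *Nsf2*, 6 were lower and 1 was higher in *pri* mutants. *E5*, a homeobox gene 33.8 kb away, had 8.02, 10.6 and 10.5 normalized counts in *pri* mutants, against 241, 327 and 268 in *ken* mutants (log2 fold change −4.84 ± 0.22, adjusted p = 0.00135, edgeR). The non-coding RNA gene *CR43641* and *CG31495* had log2 fold changes of −4.28 and −3.57. The single gene called higher, the dipeptidase gene *Dip-B*, had a log2 fold change of 0.62. The calls of *CG31495* (without *pri* 2 or *ken* 3, adjusted p = 6.37e-08 to 0.0612 over the alternatives) and *Dip-B* (without *pri* 2 or 3 or *ken* 3, adjusted p = 2.93e-07 to 0.0601 over the alternatives) were lost in the settings given.

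**Figure D2:**
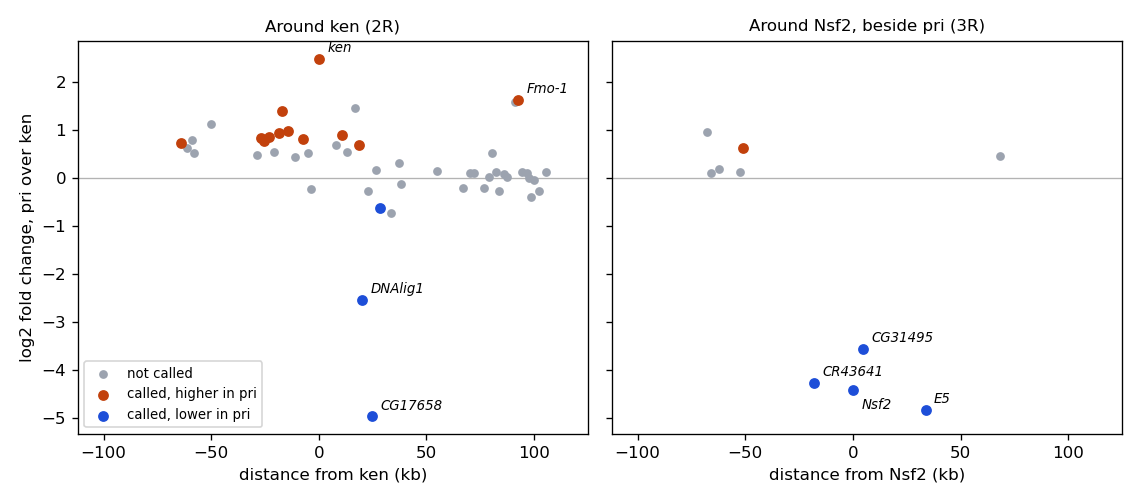
Each point is one gene, placed by the distance of its start from *ken* (left panel) or *Nsf2* (right panel) in kb (x axis) and its log2 fold change of *pri* over *ken* (y axis), with called genes in orange (higher in *pri*) and blue (lower), genes not called in grey, and genes with a mean below 10 normalized counts left out, among them 2 called genes near *Nsf2*. Genes before *ken* lie mostly above 0, *DNAlig1* and *CG17658* below it, and *Nsf2*, *E5*, *CR43641* and *CG31495* between −3.57 and −4.84.

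Most trichome effectors were lower in *pri* than in *ken* mutants. Of 13 tested, 8 were called lower and none higher (2.83% and 2.14% of all genes), and the median log2 fold change was −1.38 against −0.01 for all genes. *sha* (*shavenoid*), needed for the outgrowth of the hair, had 386, 322 and 452 normalized counts in *pri* mutants, against 1909.8, 3572 and 2400.1 in *ken* mutants (log2 fold change −2.78 ± 0.25, adjusted p = 0.00314, edgeR). The values of the mutants were far apart, and no *pri* sample exceeded 452. *f* (*forked*), an actin bundling protein, had 622, 1103 and 916 normalized counts in *pri* mutants, against 2453, 3259 and 2691 in *ken* mutants (log2 fold change −1.69 ± 0.21, adjusted p = 0.00833, edgeR). In *sn* (*singed*), the fly fascin that also bundles actin, the log2 fold change was −0.39 and did not pass (adjusted p = 0.157, edgeR).

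The zona pellucida domain proteins shape the extracellular matrix over the hair, each in its own part of it. Among 12 tested, 5 were lower (41.7%, against 2.83% of all genes) and none higher, with a median of −1.16. *m* (*miniature*) had 394, 635 and 579 normalized counts in *pri* mutants, against 1759, 3387 and 2227 in *ken* mutants (log2 fold change −2.21 ± 0.28, adjusted p = 0.00819, edgeR). *dyl* (*dusky-like*) had 3805, 6216 and 4904 normalized counts in *pri* mutants, against 12032, 21822 and 13185 in *ken* mutants (log2 fold change −1.68 ± 0.27, adjusted p = 0.0173, edgeR). *mey* and *neo* had log2 fold changes of −1.52 ± 0.17 and −1.38 ± 0.22, and the fifth, *tyn*, of −1.12. *nyo* and *zye*, at −1.21 and 0.09, were not called. The eighth effector called was *ect* (*ectodermal*, log2 fold change −1.96), which encodes an epidermal protein. In each mutant the summed level of the effectors was lowest in sample 1 and highest in sample 2, from 26286 to 36611 in *pri* and from 64072 to 109102 in *ken* mutants, without overlap.

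The number of effectors called was 9 with the replicate block, 9 without both samples 1, 4 without *ken* 3 and 5 without *pri* 3. Zona pellucida genes called lower numbered 7 with the block (and 1 was higher), 2 without *ken* 3 and 3 without *pri* 2 or *pri* 3. Lost in the settings given were the calls of *neo* (without *pri* 2 or *ken* 3, adjusted p = 3.65e-07 to 0.0706 over the alternatives) and *dyl* (without *pri* 3 or *ken* 3, adjusted p = 6.46e-08 to 0.0739 over the alternatives), while those of *sha*, *f*, *m* and *mey* held throughout. *ect* was not called without *ken* 3 or *pri* 3, and *tyn* kept its call in 1 of the 6 fits without 1 sample.

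**Figure D3:**
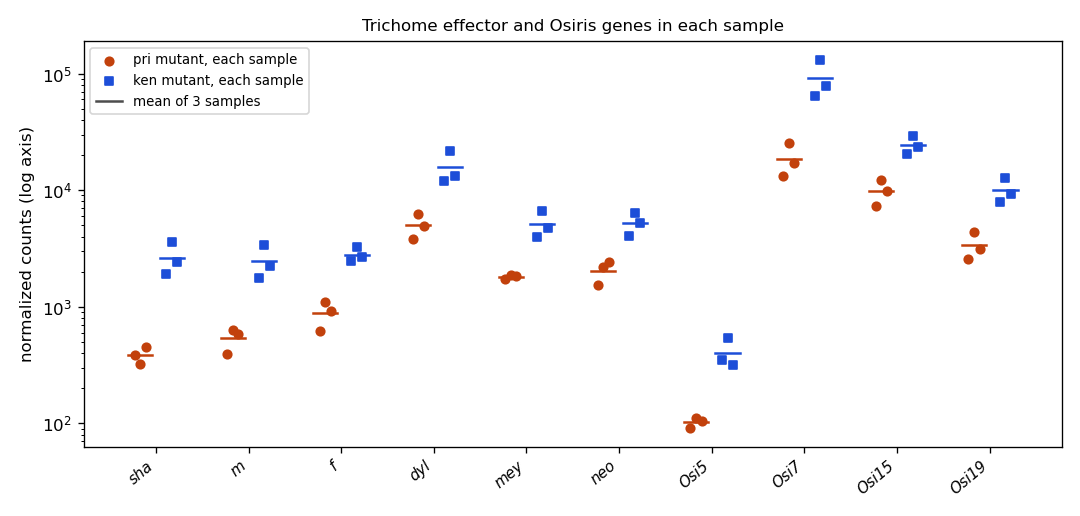
Each point is the normalized count of one sample on a log axis, orange circles for *pri* and blue squares for *ken* mutants, with lines at the means of 3 samples. For each of the 10 genes every *pri* sample lies below every *ken* sample.

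A list of trichome regulators, in which *ken* was counted, did not show a shift of that size. The paper reports normal-looking trichomes in *ken* mutants. Of 9 tested, *ken*, mutated in one of the groups, and *mamo* were called, both higher (22.2%, against 2.14% of all genes). The other 7 had a log2 fold change below 0, and the median was −0.18. None of these was called, but 1 was called lower without *pri* 1 and without both samples 1. *ovo*, which encodes Shavenbaby, was at −0.20 on the log2 scale (adjusted p = 0.52, edgeR), *Ubr3* at −0.0016, *SoxN* at −0.18 and the ecdysone receptor gene *EcR* at −0.18. *mamo*, a further BTB zinc finger gene, had 77.9, 126 and 99.4 normalized counts in *pri* mutants, against 37.8, 33.7 and 40.5 in *ken* mutants (log2 fold change 1.41 ± 0.24, adjusted p = 0.0218, edgeR), and lost its call when any one sample other than *pri* 1 was left out (adjusted p = 0.0661 to 0.0864). The wider actin machinery had a median of −0.03, with 3 of 49 genes lower (6.12%, against 2.83% of all genes) and none higher, and DESeq2 called 5 lower and 1 higher. Apart from *sha* and *f* the gene called lower by edgeR was the formin gene *DAAM* (log2 fold change −0.72 ± 0.15, adjusted p = 0.0469, edgeR), whose call was lost in every fit without 1 sample, without both samples 1, with RLE factors or library totals and under both filters (adjusted p = 0.0533 to 0.143).

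The Osiris genes, an insect family of secretory pathway and membrane proteins expressed in tissues that lay down cuticle, were lower too, where they passed the test. Of 25 tested, 11 were lower in *pri* mutants (44.0%, against 2.83% of all genes) and none was higher, with a median of −1.32. *Osi7* had 13131, 25573 and 16968 normalized counts in *pri* mutants, against 64389, 131676 and 77806 in *ken* mutants (log2 fold change −2.32 ± 0.34, adjusted p = 0.0129, edgeR). *Osi15* had 7278, 12096 and 9872 normalized counts in *pri* mutants, against 20452, 28873 and 23384 in *ken* mutants (log2 fold change −1.33 ± 0.20, adjusted p = 0.015, edgeR). *Osi19* had a log2 fold change of −1.59 ± 0.24, and *Osi5* had 90.5, 111 and 104 normalized counts in *pri* mutants, against 351, 540.1 and 314 in *ken* mutants. The 11 called genes ranged from −1.32 in *Osi9* to −2.32 in *Osi7*, while *Osi1*, *Osi2*, *Osi11*, *Osi21* and *Osi23* stood above 0 without passing. The summed level of the family was 76095 to 119478 in *pri* mutants, against 200880 to 392078 in *ken* mutants. Again it was lowest in sample 1 and highest in sample 2 of each mutant. Most of the family lies in one cluster on 3R (the 4 genes given, 6227512 to 6337196), and its members are paralogs.

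With the replicate block 15 Osiris genes were lower and 1 was higher, and without both samples 1 the number lower was 11. It was 6 without *ken* 2, 7 without *pri* 1, 2 without *ken* 3 and 1 without *pri* 3, with medians of −1.15 to −1.34 in these fits. The calls of *Osi7* (without *pri* 3, adjusted p = 5.38e-11 to 0.0602 over the alternatives), *Osi19* (without *pri* 3 or *ken* 3, adjusted p = 1.78e-08 to 0.0629 over the alternatives) and *Osi15* (without *pri* 3 or *ken* 3, adjusted p = 1.45e-07 to 0.0642 over the alternatives) were lost accordingly, and that of *Osi5* was not.

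Among the cuticle protein genes called, *Lcp2*, *Lcp1* and *Lcp4* of a single cluster had the largest differences. *Cpr67Fa1* on 3L, given below and lower in *pri* mutants, followed at −4.11, ahead of *Lcp3*. *Lcp1* to *Lcp4*, larval cuticle protein genes side by side on 2R (8430115 to 8438495), were all higher in *pri* mutants. Against control embryos, the paper reports *Lcp3*, *Lcp4* and *Cpr47Eb* as up-regulated in both mutants. A lower level in *ken* than in *pri* mutants therefore does not place *ken* mutants at the level of controls. *Lcp4* had 30806, 21866 and 25566 normalized counts in *pri* mutants, against 452, 341 and 1581 in *ken* mutants (log2 fold change 5.02 ± 0.64, adjusted p = 0.00833, edgeR). *Lcp2* had 2389.8, 1095 and 1616 normalized counts in *pri* mutants, against 37.8, 18.95 and 26.7 in *ken* mutants (log2 fold change 5.89 ± 0.40, adjusted p = 0.0019, edgeR). *Lcp3* had 5789, 3436 and 4887 normalized counts in *pri* mutants, against 916, 208 and 456 in *ken* mutants (log2 fold change 3.13 ± 0.53, adjusted p = 0.0208, edgeR). In *Lcp1* the levels were low in *ken* mutants, with 308, 130.4 and 183 normalized counts in *pri* mutants, against 5.76, 4.21 and 0.987 in *ken* mutants (log2 fold change 5.73 ± 0.57, adjusted p = 0.00439, edgeR). In all 4 genes *pri* 1 was the highest *pri* sample and *pri* 2 the lowest, and even the lowest lay above every *ken* sample. The 4 genes are close paralogs, so reads may have been shared between them. *Lcp3* lost its call without *ken* 3 or *pri* 3 and with the robust spread (adjusted p = 0.103, 0.0645 and 0.069, edgeR, 7.79e-11 to 0.103 over the alternatives).

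The wider Rebers-Riddiford family of chitin-binding cuticle proteins, to which *Lcp1* to *Lcp4* belong, was split. Of 95 tested, 8 were higher and 10 lower (8.42% and 10.5%, against 2.14% and 2.83% of all genes), and the median was 0.33. *Cpr65Au* had 73.4, 74.2 and 70.1 normalized counts in *pri* mutants, against 10.7, 8.42 and 7.90 in *ken* mutants (log2 fold change 2.96 ± 0.24, adjusted p = 0.00286, edgeR). Higher too, beside the *Lcp* genes, were *Cpr49Ac* (2.05), *Cpr76Bc* (1.11) and *Edg78E* (1.19). On the other side, *Cpr66D* had 532, 777 and 710.2 normalized counts in *pri* mutants, against 3264, 3936 and 4125 in *ken* mutants (log2 fold change −2.51 ± 0.16, adjusted p = 0.0019, edgeR). *Cpr67Fa1* had 58.5, 72.1 and 62.8 normalized counts in *pri* mutants, against 1095, 704 and 1488 in *ken* mutants (log2 fold change −4.11). The others called lower were *Cpr62Ba*, *Ccp84Af*, *Cpr49Ah*, *Cpr23B*, *Cpr66Cb*, *Ccp84Ac*, *Cpr65Eb* and *Cpr64Ab*, between −2.67 and −0.93. Both directions thus held differences of more than 2 on the log2 scale.

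The Tweedle proteins, a family of cuticle proteins that help to set body shape, were called in one direction. Of 26 tested, 7 were lower and none higher (26.9%, against 2.83% lower and 2.14% higher of all genes), with a median of −0.42. A log2 fold change above 0 was found in 9 and one below 0 in 17. The summed level of the family was 154809 to 232292 in *pri* mutants, against 166399 to 255394 in *ken* mutants, so it overlapped. *TwdlW* had 1654, 2339 and 1884 normalized counts in *pri* mutants, against 5556, 5371 and 6645 in *ken* mutants (log2 fold change −1.60 ± 0.15, adjusted p = 0.00339, edgeR). *TwdlF*, with 14456, 18640.4 and 18862 normalized counts in *pri* mutants, against 33708, 55108 and 41156 in *ken* mutants, and *TwdlT* and *TwdlG* had log2 fold changes of −1.34, −1.79 and −0.89. *TwdlE*, *TwdlQ* and *TwdlS* made up the rest (−1.57, −1.40 and −2.76). The cuticle genes *Vajk1* and *Vajk4*, 2 of 5 in a further group, were also lower (−1.55 and −1.38).

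Several cuticle genes varied within each mutant as much as between them. *Edg91* had 8241, 1575 and 2528 normalized counts in *pri* mutants, against 1768, 399 and 261 in *ken* mutants, and its log2 fold change of 2.32 ± 0.89 did not pass (adjusted p = 0.225, edgeR) but did with the replicate block (0.00101). *TwdlP* had 9151, 2089.9 and 3454 normalized counts in *pri* mutants, against 3177, 935 and 1339.7 in *ken* mutants (log2 fold change 1.41, adjusted p = 0.304, edgeR, and 0.000406 with the block). *Cpr47Eb* had 7472, 496 and 889 normalized counts in *pri* mutants, against 11840.4, 2332 and 1760.3 in *ken* mutants (log2 fold change −0.87, adjusted p = 0.715, edgeR, and 0.027 with the block). In all 3 sample 1 was the highest of its mutant, and the values overlapped between the mutants.

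With the replicate block 21 Rebers-Riddiford genes were higher and 15 lower, and 3 Tweedle genes were higher and 7 lower. Without both samples 1, 8 and 7 Rebers-Riddiford genes were called, and their median was 0.08. The number lower was 5 without *ken* 3 or *pri* 2 and 6 without *ken* 1 or *pri* 3, and the number higher was 5 without *pri* 3. Tweedle calls numbered 4 without *ken* 3 or *pri* 3. Lost were the calls of *TwdlF* (without *ken* 3, adjusted p = 2.7e-08 to 0.0559 over the alternatives) and *Vajk1* (without *pri* 3 or *ken* 3, adjusted p = 3.64e-08 to 0.0563 over the alternatives), and the others of this group named with full values held. Of those named by fold alone, *Cpr76Bc* and *Edg78E* kept their call in none of the fits without 1 sample, and *Cpr62Ba*, *Ccp84Af*, *Cpr49Ah*, *Ccp84Ac*, *Cpr64Ab*, *TwdlE*, *TwdlQ* and *TwdlS* lost theirs in 2 or more of them.

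**Figure D4:**
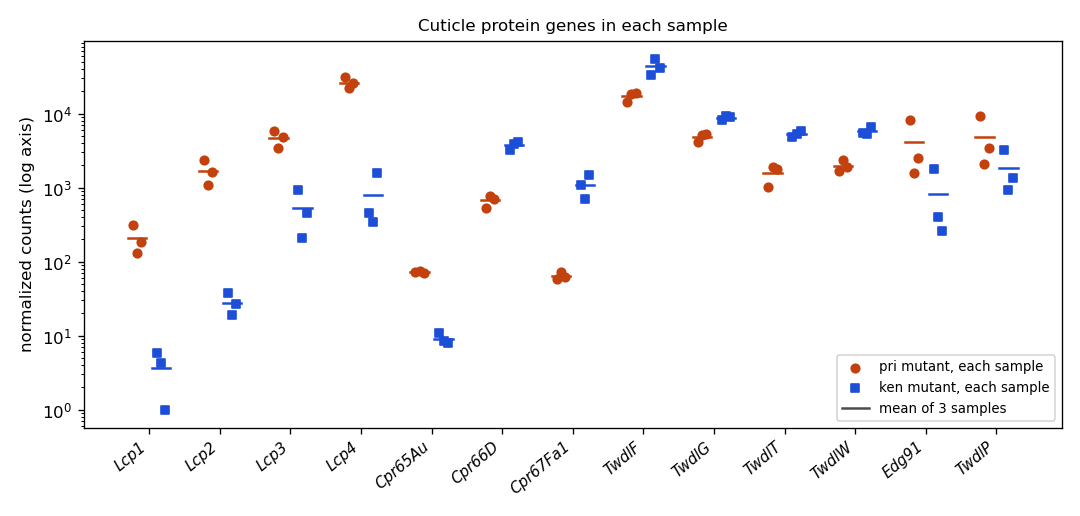
Each point is the normalized count of one sample on a log axis, orange circles for *pri* and blue squares for *ken* mutants, with lines at the means of 3 samples. *Lcp1* to *Lcp4* and *Cpr65Au* lie higher in every *pri* sample, *Cpr66D*, *Cpr67Fa1* and 4 Tweedle genes lower, and *Edg91* and *TwdlP* spread widely within each mutant.

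Genes that make or organise chitin, the polysaccharide of the cuticle, were called in both directions, most of them by less than 1 on the log2 scale. Of 60 tested, 10 were lower and 4 higher (16.7% and 6.67%, against 2.83% and 2.14% of all genes), with a median of 0.08. *kkv* (*krotzkopf verkehrt*), the chitin synthase of the epidermis and trachea, had 4905, 4713 and 5012 normalized counts in *pri* mutants, against 7195, 8249 and 7387 in *ken* mutants (log2 fold change −0.66 ± 0.08, adjusted p = 0.00833, edgeR). *Gasp*, a chitin-binding protein of the tracheal and epidermal matrix, had 15515, 16982 and 16812 normalized counts in *pri* mutants, against 28194, 33100 and 35014 in *ken* mutants (log2 fold change −0.99 ± 0.10, adjusted p = 0.00539, edgeR). *ChLD3*, named as a chitin deacetylase-like protein, had 201, 235 and 249 normalized counts in *pri* mutants, against 796, 1274 and 931 in *ken* mutants (log2 fold change −2.15 ± 0.19, adjusted p = 0.00314, edgeR). The mucin-like gene *Muc91C* had 2429.9, 3244 and 3928 normalized counts in *pri* mutants, against 9002, 7766 and 11682 in *ken* mutants (log2 fold change −1.59 ± 0.22, adjusted p = 0.0104, edgeR), *Muc96D* is given among the largest changes, and *Mur82C*, named for likeness to mucins, had 0, 1.06 and 0 normalized counts in *pri* mutants, against 23.04, 17.9 and 15.8 in *ken* mutants, so few counts that no fold is given. *exp* (*expansion*), the deacetylase gene *serp*, the chitinase gene *Cht7* and *obst-B* were lower by less than 1 on the log2 scale (−0.41, −0.36, −0.47 and −0.56). Higher were *Gnpnat*, an enzyme of the pathway to the chitin precursor, and the chitinase-like growth factors *Idgf4*, *Idgf5* and *Idgf6* (0.47, 0.69, 0.61 and 0.61). The calls of *kkv*, *Gasp*, *ChLD3* and *Muc91C* held in every alternative, and those of *exp*, *serp* and *Idgf5* in none of the fits without 1 sample. The number higher was 8 with the block, 0 without *ken* 3 or *pri* 2 (DESeq2 with all 6 samples called 7), 1 without *ken* 2 and 2 without *ken* 1 or *pri* 3, and the number lower was 5 without *ken* 3, *pri* 2 or *pri* 3 and 6 without *ken* 1.

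Tanning enzymes turn tyrosine into the quinones that harden and darken cuticle. Of 16 tested, 2 were higher (12.5%, against 2.14% of all genes) and none lower, with a median of 0.43. *b* (*black*), which makes beta-alanine, had 193, 245 and 276 normalized counts in *pri* mutants, against 75.7, 45.3 and 96.8 in *ken* mutants (log2 fold change 1.69 ± 0.30, adjusted p = 0.0255, edgeR). *PPO2*, the prophenol oxidase stored in crystal cells of the blood, had 9218, 10624 and 9724 normalized counts in *pri* mutants, against 4020.3, 6489 and 5056 in *ken* mutants (log2 fold change 0.91 ± 0.17, adjusted p = 0.0285, edgeR). The first enzyme of the pathway, tyrosine hydroxylase (*ple*), was at −0.04 on the log2 scale (adjusted p = 0.979, edgeR), and dopa decarboxylase (*Ddc*) at 1.02 (0.469). With the block 8 were higher and 2 lower, and DESeq2 called 5 and 1. Neither *b* nor *PPO2* was called without *ken* 1, *ken* 3, *pri* 2 or *pri* 3 (for *b* adjusted p = 0.0756, 0.0518, 0.0757 and 0.096, for *PPO2* 0.0541, 0.123, 0.092 and 0.0958). Of 13 genes of the yellow family 1 was lower (7.69%, against 2.83% of all genes). It was *yellow-h* (log2 fold change −1.14), which lost its call without *ken* 3 or *pri* 3 (adjusted p = 0.0577 and 0.0571, edgeR). Of 17 genes for hydrocarbons and the envelope 1 was lower (5.88%), the fatty acid synthase gene *FASN2* (−1.31). None remained without *ken* 3, *pri* 2 or *pri* 3 (adjusted p of *FASN2* 0.0856, 0.0772 and 0.0877, edgeR).

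Genes of innate immunity mostly had log2 fold changes above 0, few of them beyond the spread of the samples. Of 45 antimicrobial peptide genes and effectors of the Toll and Imd pathways, 4 were higher and 1 lower (8.89% and 2.22%, against 2.14% and 2.83% of all genes). The median was 0.99, and 34 had a log2 fold change above 0. *BomBc2*, a bomanin peptide gene, had 44.7, 52.99 and 55.4 normalized counts in *pri* mutants, against 5.76, 5.26 and 4.94 in *ken* mutants (log2 fold change 3.21 ± 0.26, adjusted p = 0.00286, edgeR). *Drsl4* and *Drsl5*, neighbouring drosomycin-like genes on 3L, went opposite ways. *Drsl4* had 393, 234 and 232 normalized counts in *pri* mutants, against 4.11, 16.8 and 23.7 in *ken* mutants (log2 fold change 4.26 ± 0.56, adjusted p = 0.00956, edgeR). *Drsl5* had 71.1, 73.1 and 46.02 normalized counts in *pri* mutants, against 773, 1077 and 726 in *ken* mutants (log2 fold change −3.78 ± 0.25, adjusted p = 0.0019, edgeR). The peptidoglycan recognition genes *PGRP-SB1* and *PGRP-LC* had log2 fold changes of 2.22 and 0.52. *Drs* itself and *Mtk*, common readouts of these pathways, had 1.03 and 1.78 and did not pass (adjusted p = 0.729 and 0.133, edgeR).

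The summed level of these 45 genes was 5200 to 15585 in *pri* mutants, against 5247 to 7592 in *ken* mutants, so it overlapped, and the median was 0.47 without both samples 1. With the block 9 were higher and 1 lower, and the number higher was 2 without *ken* 1, *ken* 3 or *pri* 3. The call of *PGRP-SB1* (without *pri* 3 or *ken* 1 or 3, without both samples 1, adjusted p = 0.000188 to 0.0837 over the alternatives) was lost in those settings, and that of *PGRP-LC* in every fit without 1 sample.

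Proteases that act upstream of Toll and of melanization, with their serpin inhibitors, leaned the same way. Of 39 tested, 4 were higher (10.3%, against 2.14% of all genes) and none lower, with a median of 0.25. *grass*, a protease of the Toll cascade, had 829, 522 and 497 normalized counts in *pri* mutants, against 203, 173 and 197 in *ken* mutants (log2 fold change 1.67 ± 0.23, adjusted p = 0.0104, edgeR). *psh* (*persephone*), which senses microbial proteases, and *SPE*, which processes the Toll ligand, were at 1.02 ± 0.16 and 0.66 ± 0.13 on the log2 scale, and the serpin *Spn42De* at 0.74 ± 0.14. With the block 11 were higher and 1 lower, and without both samples 1, 8 and 1. None was called without *ken* 3 (DESeq2 with all 6 samples called 9), 1 without *pri* 3 and 2 without *ken* 1 or *pri* 2.

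Markers of hemocytes, the blood cells, were also called as higher. Of 21 tested, 4 were higher (19.0%, against 2.14% of all genes) and none lower, with a median of 0.51. *NimC1*, a phagocytosis receptor of plasmatocytes, had 289, 238 and 273 normalized counts in *pri* mutants, against 67.5, 68.4 and 77.99 in *ken* mutants (log2 fold change 1.88 ± 0.16, adjusted p = 0.0031, edgeR). *NimB4* and *NimB1*, in the same cluster of Nimrod genes on 2L, had log2 fold changes of 0.76 ± 0.09 and 0.96 ± 0.15, and *PPO2* was given above. The defining genes *srp*, *Pxn*, *crq* and *Hml* were at −0.06, −0.10, −0.0041 and 0.17 on the log2 scale and were not called. The summed level of the list was 52821 to 57727 in *pri* mutants, against 36651 to 43708 in *ken* mutants. Its part in the immune differences was not tested. With the block 7 were higher and 1 lower. Only *NimC1* and *NimB4* were called without *ken* 1, *ken* 3, *pri* 2 or *pri* 3, where *NimB1* had adjusted p = 0.0676, 0.0732, 0.0668 and 0.0778 (edgeR, 4.91e-06 to 0.0778 over the alternatives), and without *ken* 1 another gene was lower.

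Stress genes had a median of 1.15, but of 24 tested 2 were called, both higher (8.33%, against 2.14% of all genes). *TotE*, of the Turandot family of secreted stress peptides, had 66.5, 102 and 87.9 normalized counts in *pri* mutants, against 0.823, 3.16 and 6.91 in *ken* mutants (log2 fold change 4.53 ± 0.56, adjusted p = 0.00789, edgeR). *Hsp70Ab*, a heat shock chaperone gene with near-identical copies whose counts are therefore uncertain, had 65.3, 18.02 and 54.4 normalized counts in *pri* mutants, against 1.65, 2.11 and 2.96 in *ken* mutants (log2 fold change 4.28 ± 0.61, adjusted p = 0.0122, edgeR). *Hsp23*, *Hsp26* and *Hsp68* were at 2.86, 2.42 and 2.74 on the log2 scale, short of the threshold (adjusted p = 0.073, 0.186 and 0.0716, edgeR). The block gave 7 genes, DESeq2 gave 9, leaving out *pri* 2 gave 7 and *pri* 1 gave 4, and leaving out *ken* 2 or *ken* 3 gave 1. The median was 0.49 without *pri* 1 and 0.34 without both samples 1. *Hsp70Ab* was not called without any one *ken* sample (adjusted p = 0.0504, 0.0516 and 0.059) or without both samples 1 (0.0641).

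Enzymes that modify and clear foreign compounds and hormones were called in both directions. Among 80 cytochrome P450 genes, 5 were higher and 4 lower (6.25% and 5.0%, against 2.14% and 2.83% of all genes), with a median of −0.04. *Cyp309a2* had 1825, 2056 and 1641 normalized counts in *pri* mutants, against 214, 227 and 311 in *ken* mutants (log2 fold change 2.85 ± 0.17, adjusted p = 0.00182, edgeR). *Cyp4e2*, a P450 gene that neighbours the *Lcp* cluster on 2R, had 1264, 1314 and 1499 normalized counts in *pri* mutants, against 3499, 2929 and 2838 in *ken* mutants (log2 fold change −1.21 ± 0.12, adjusted p = 0.00425, edgeR). *Cyp6a8* had 339, 235 and 839 normalized counts in *pri* mutants, against 1991, 1771 and 2269 in *ken* mutants, and *Cyp6a19* had 4.58, 3.18 and 7.32 normalized counts in *pri* mutants, against 72.4, 21.1 and 27.6 in *ken* mutants (log2 fold changes −2.11 and −3.01), and each kept its call in 1 of the 6 fits without 1 sample. *Cyp313b1* had a log2 fold change of 1.01 ± 0.11. Among 35 glutathione transferases 3 were higher and 3 lower (8.57% each). *GstE3* had 1993, 1351 and 1612 normalized counts in *pri* mutants, against 6858, 4476 and 4798 in *ken* mutants (log2 fold change −1.72 ± 0.22, adjusted p = 0.00833, edgeR), whereas *GstE1*, in the same cluster, had 1818, 1528 and 1640.1 normalized counts in *pri* mutants, against 1032, 893 and 862 in *ken* mutants (log2 fold change 0.82 ± 0.12, adjusted p = 0.0119, edgeR). *GstD5* and *GstT4* had log2 fold changes of −2.44 and 0.65.

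Among 35 UDP-glycosyltransferases 3 were higher and 2 lower (8.57% and 5.71%, against 2.14% and 2.83% of all genes). *Ugt35D1* had 2049, 2447 and 2194 normalized counts in *pri* mutants, against 455, 658 and 698 in *ken* mutants (log2 fold change 1.87 ± 0.17, adjusted p = 0.00314, edgeR). *Ugt301D1* and *Ugt35C1* had log2 fold changes of 1.57 ± 0.13 and 1.98 ± 0.38. *Ugt302E1* had 8.02, 6.36 and 7.32 normalized counts in *pri* mutants, against 92.98, 44.2 and 72.1 in *ken* mutants (log2 fold change −3.28 ± 0.37, adjusted p = 0.00614, edgeR). With the block 10 P450 genes were higher and 10 lower, 4 and 8 glutathione transferases, and 6 and 4 glycosyltransferases. The P450 genes numbered 3 higher without *ken* 3, *pri* 2 or *pri* 3 and 2 lower without *ken* 1, *ken* 3, *pri* 1 or *pri* 2. The glutathione transferases numbered 0 higher without *ken* 3 or *pri* 3 (DESeq2 with all 6 samples called 4), and the glycosyltransferases 2 higher without any one *ken* sample or *pri* 3, with 1 lower in every fit without 1 sample. Lost were the calls of *GstE1* (without *pri* 3 or *ken* 3, adjusted p = 8.78e-08 to 0.065 over the alternatives), *GstT4* (without *pri* 2 or 3 or *ken* 3, adjusted p = 2.13e-06 to 0.0642 over the alternatives) and *Ugt35C1* (without *pri* 3 or *ken* 1 or 2 or 3, with all 9 samples, with the robust spread, adjusted p = 1.63e-06 to 0.135 over the alternatives).

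Of the ecdysone system, 2 of 15 genes for synthesis and inactivation were higher (13.3%, against 2.14% of all genes), and the median was 0.64. *phtm* (*phantom*), a P450 hydroxylase of ecdysone synthesis, had 347, 352 and 304 normalized counts in *pri* mutants, against 169, 155 and 177 in *ken* mutants (log2 fold change 0.98 ± 0.14, adjusted p = 0.0111, edgeR). *Cyp18a1*, its neighbour on the X chromosome, which inactivates ecdysone, had 3645, 3676 and 3788 normalized counts in *pri* mutants, against 2366, 2262 and 2417 in *ken* mutants (log2 fold change 0.64 ± 0.08, adjusted p = 0.00671, edgeR). Both enzymes, of synthesis and of inactivation, were higher. With the block 5 were higher and 1 lower, and without *ken* 3 or *pri* 2 *phtm* was not called (adjusted p = 0.0545 and 0.0521, edgeR, 2.01e-07 to 0.0545 over the alternatives).

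Among 23 genes that respond to ecdysone 1 was higher and 2 were lower (4.35% and 8.70%, against 2.14% and 2.83% of all genes), with a median of −0.01. *ImpE1*, an early-late gene for a membrane protein of epidermal morphogenesis, had 1728, 3498 and 2667 normalized counts in *pri* mutants, against 5662, 10469 and 7817 in *ken* mutants (log2 fold change −1.62 ± 0.30, adjusted p = 0.029, edgeR). *vri* (*vrille*), a bZIP transcription factor, had 899.8, 1114 and 1246 normalized counts in *pri* mutants, against 1689, 3226 and 2150.3 in *ken* mutants (log2 fold change −1.13 ± 0.24, adjusted p = 0.0451, edgeR). The cuticle gene *Edg78E* had 522, 356 and 497 normalized counts in *pri* mutants, against 219, 141 and 234 in *ken* mutants (log2 fold change 1.19 ± 0.24, adjusted p = 0.0418, edgeR). Lost were the calls of *ImpE1* (without *pri* 3 or *ken* 2 or 3, with the robust spread, adjusted p = 3.52e-06 to 0.107 over the alternatives), *vri* (without *pri* 1 or 2 or 3 or *ken* 2 or 3, with library totals, with filterByExpr, with at least 10 counts in 3 samples, with the robust spread, adjusted p = 0.000351 to 0.123 over the alternatives) and *Edg78E* (without *pri* 1 or 2 or 3 or *ken* 1 or 2 or 3, without both samples 1, adjusted p = 0.000123 to 0.14 over the alternatives). With the block 2 were higher and 2 lower.

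In the insulin pathway 1 of 23 genes was higher (4.35%, against 2.14% of all genes). It was *Ilp6*, the insulin-like peptide of the fat body, with 1061, 775 and 859 normalized counts in *pri* mutants, against 490.4, 504 and 508 in *ken* mutants (log2 fold change 0.82 ± 0.14, adjusted p = 0.0211, edgeR). Its call was lost without any one *ken* sample or *pri* 3 (adjusted p = 0.0601, 0.0734, 0.0936 and 0.0732), and with the block 2 genes were higher. None of 21 neuropeptide genes was called (1 by DESeq2, 2 at an unadjusted p below 0.05, 1 with the block). *Ms* (myosuppressin) and *SIFa* had log2 fold changes of 0.93 and −0.89. Of 15 Methuselah-like receptor genes, 2 were higher (13.3%). *mthl9* had 2243, 2412 and 2435 normalized counts in *pri* mutants, against 1266, 1115 and 1354 in *ken* mutants (log2 fold change 0.90 ± 0.10, adjusted p = 0.00603, edgeR), and *mthl11*, at no more than 1.98 normalized counts in *ken* mutants, lost its call without any one sample and by DESeq2.

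Few genes that pattern the embryo passed the test. With 2.14% of all genes called higher and 2.83% lower, few calls or none would be found in lists of this size. None of 30 genes of segment signalling (Wnt, Hedgehog, EGF receptor and Notch pathways), of 8 Hox genes or of 10 tracheal regulators was called. At an unadjusted p below 0.05 there were 5, 0 and 1, DESeq2 called 1, 0 and 0, and the block called 1, 0 and 1. *wg*, the Wnt ligand of the segment border, had 927, 977 and 1054 normalized counts in *pri* mutants, against 653, 702 and 821 in *ken* mutants (log2 fold change 0.42 ± 0.12, adjusted p = 0.104, edgeR) and passed with the block (0.0325). *trh* (*trachealess*) was at −0.37 on the log2 scale (adjusted p = 0.112, edgeR, and 0.0437 with the block), and *vvl* and *kni*, also tracheal regulators, had −0.28 and 0.19 and did not pass. Of 20 gap and pair-rule genes 1 was higher (5.0%, against 2.14% of all genes), and 17 had a log2 fold change above 0. The gene called, *slp1*, had 1060.2, 1027 and 1046 normalized counts in *pri* mutants, against 619, 751 and 737 in *ken* mutants (log2 fold change 0.55 ± 0.10, adjusted p = 0.0299, edgeR). *slp1* lost its call without any one sample (adjusted p = 0.0507 to 0.127), and with the block 3 were higher and 1 lower.

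Genes of epithelial structure did not pass either. At the shares of all genes (2.14% higher and 2.83% lower), lists of this size would hold few calls or none. None of 20 genes of septate junctions and none of 14 of polarity and adherens junctions was called in either tool (2 and 0 at an unadjusted p below 0.05). *vari*, a scaffold of septate junctions, and *M6* were at −0.34 and −0.38 on the log2 scale (adjusted p = 0.122 and 0.139, edgeR). *vari* passed with the block and without both samples 1 (0.0498 and 0.0451), *M6* without both samples 1 and without *ken* 1 (0.0305 and 0.0442). Of 17 genes of the JAK/STAT pathway, some targets of which Ken is known to repress in flies, none was called (0 by DESeq2, 2 at an unadjusted p below 0.05, 1 with the block and 1 without *pri* 2). The targets that the paper names as repressed by Ken at earlier stages, *vvl*, *trh* and *kni*, were given above, and *trh* passed with the block. *Socs36E*, a target of this pathway that the paper names as not affected in *ken* mutants, had 2597, 2147 and 2269.8 normalized counts in *pri* mutants, against 2316, 2230 and 2101 in *ken* mutants (log2 fold change 0.06, adjusted p = 0.804, edgeR).

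Few markers of other tissues passed the test, and lists of this size would also hold few at the shares of all genes. In muscle, 1 of 32 genes was higher and 1 lower (3.1% each, near the 2.14% and 2.83% of all genes), a pair of troponin C genes. *TpnC41C* had 543, 545 and 583 normalized counts in *pri* mutants, against 188, 141 and 148 in *ken* mutants (log2 fold change 1.78 ± 0.15, adjusted p = 0.00314, edgeR), and *TpnC73F* had 11651, 10323 and 10262 normalized counts in *pri* mutants, against 23886, 21148 and 20131 in *ken* mutants (log2 fold change −1.04 ± 0.11, adjusted p = 0.00536, edgeR). None of 37 neuronal and 12 glial genes was called (1 and 0 by DESeq2, 4 and 1 at an unadjusted p below 0.05), but 5 neuronal genes were higher with the block, among them *Vmat* (log2 fold change 0.75, adjusted p = 0.0533, edgeR, and 0.00145 with the block). None of 25 salivary gland genes and none of 13 basement membrane genes was called in either tool (1 and 2 at an unadjusted p below 0.05). Of 21 germ line genes none was called (2 by DESeq2, 6 at an unadjusted p below 0.05), and the median was −0.42. *bam*, which drives germ cell differentiation, had 20.6, 15.9 and 13.6 normalized counts in *pri* mutants, against 192, 48.4 and 46.4 in *ken* mutants (adjusted p = 0.0786, edgeR, and 0.00888 with the block).

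In the gut the samples of each mutant differed widely. Of 58 midgut digestive enzymes *Npc2h* was higher and *Jon74E* lower (1.72% each, against 2.14% and 2.83% of all genes). *Jon74E*, at no more than 7.90 normalized counts, was not called by DESeq2 (adjusted p = 0.123), with the block (0.0757), without any one sample or without both samples 1. The median of 0.29 became −1.12 without *pri* 1 and −0.63 without both samples 1, where 7 were lower. The summed level of the list was 41431, 14415 and 16575 in *pri* and 24009, 13400 and 18806 in *ken* mutants. *Npc2h*, of a family of sterol-binding proteins, had 298, 316 and 324 normalized counts in *pri* mutants, against 69.1, 122 and 75.03 in *ken* mutants (log2 fold change 1.80 ± 0.23, adjusted p = 0.00913, edgeR), and was not called without *ken* 3 (adjusted p = 0.0518). Of 15 fat body and serum protein genes 1 was higher and 1 lower (6.67% each). *Sid*, a stress-induced DNase, had 312, 226 and 252 normalized counts in *pri* mutants, against 58.4, 47.4 and 63.2 in *ken* mutants (log2 fold change 2.20 ± 0.21, adjusted p = 0.00343, edgeR), and *Mtp*, a lipid transfer protein of lipoprotein assembly, had 1955, 2313 and 2140.1 normalized counts in *pri* mutants, against 3038, 3674 and 3098 in *ken* mutants (log2 fold change −0.63 ± 0.10, adjusted p = 0.0196, edgeR). *Mtp* lost its call without *ken* 3, *pri* 2 or *pri* 3 (adjusted p = 0.068, 0.0524 and 0.0908). Among 17 egg shell and yolk genes 1 was lower (5.88%). It was the yolk protein gene *Yp3*, at 21.8, 30.7 and 31.4 normalized counts in *pri* mutants, against 88.04, 131 and 137 in *ken* mutants (log2 fold change −2.10 ± 0.26, adjusted p = 0.00833, edgeR).

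Genes of general cell functions were seldom called. Of 91 cytosolic ribosomal proteins 1 was higher (1.1%, against 2.14% of all genes), *RpL22-like*, and it lost its call without any one sample. Of 83 subunits of oxidative phosphorylation 70 had a log2 fold change above 0 and 1 was called, lower (1.2%, against 2.83% of all genes). It was *COX6AL2*, at 0 in every *pri* sample and 5.76, 7.37 and 9.87 normalized counts in *ken* mutants. Its call too was lost without any one sample, and with the block. Of 32 genes of DNA replication *DNAlig1*, in the window after *ken*, was the one called (3.1%, near the 2.83% of all genes). None of 72 mitochondrial ribosomal proteins was called by edgeR (3 by DESeq2, 8 at an unadjusted p below 0.05), nor of 30 mitotic genes (0 and 0) or 13 of glycolysis (0 and 0, 1 with the block). The summed level of the 72 was 71841 to 75904 in *pri* mutants, against 59993 to 73174 in *ken* mutants. Of 31 proteasome subunit genes 1 was called higher and 1 lower (3.23% each, near the 2.14% and 2.83% of all genes). *Prosalpha4* had 840.2, 893 and 879 normalized counts in *pri* mutants, against 1939, 1727 and 1522 in *ken* mutants (log2 fold change −1.01 ± 0.11, adjusted p = 0.00592, edgeR), *Prosbeta6* had 2653, 2766 and 2761 normalized counts in *pri* mutants, against 1697, 1526 and 1349 in *ken* mutants (log2 fold change 0.82 ± 0.11, adjusted p = 0.00862, edgeR), and 29 of the 31 had a log2 fold change below 0 (median −0.16).

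Genes that mark the strain of a stock also differed. Of 16 eye pigment genes 3 were higher and 1 lower (18.75% and 6.25%, against 2.14% and 2.83% of all genes). *w* (*white*), the pigment transporter used as a marker of transgenes and balancers, had 636, 971 and 879.7 normalized counts in *pri* mutants, against 219.7, 302 and 222 in *ken* mutants (log2 fold change 1.72 ± 0.20, adjusted p = 0.00653, edgeR). *v* (*vermilion*) and *kar* (*karmoisin*) had log2 fold changes of 1.01 ± 0.13 and 0.77 ± 0.15, and *cn* (*cinnabar*) of −1.77 ± 0.37 from at most 18.9 normalized counts. The paper lists the *ken* stock with a mutant allele of *cn* and one of *ry*, and their part in these values was not tested. The genotypes and the stocks that carry them cannot be told apart. Among 4 genes of dosage compensation, which read the share of male embryos, none was called in either tool (1 at an unadjusted p below 0.05), and *roX1* was at 0.33 on the log2 scale (adjusted p = 0.2, edgeR). Lost were the calls of *kar* (without *pri* 2 or 3 or *ken* 2 or 3, adjusted p = 0.000445 to 0.125 over the alternatives) and *cn* (without *pri* 1 or 2 or 3 or *ken* 1 or 2 or 3, by DESeq2, with the block, without both samples 1, adjusted p = 0.0371 to 0.161 over the alternatives).

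Outside the windows around the lesions, 587 called genes, members of the lists included, had no overlap between the mutants and averaged 50 or more normalized counts, 247 higher and 340 lower in *pri* mutants. By size the first among those higher was *CG16894* (2R, 20211585 to 20212619 on dm6), with 180, 159 and 225 normalized counts in *pri* mutants, against 0.823, 0 and 4.94 in *ken* mutants (log2 fold change 6.52 ± 0.69, adjusted p = 0.00539, edgeR). *Reepl1*, named for likeness to REEP proteins of the endoplasmic reticulum, had 496, 480.1 and 477 normalized counts in *pri* mutants, against 8.23, 9.48 and 33.6 in *ken* mutants (log2 fold change 4.81 ± 0.51, adjusted p = 0.00557, edgeR). *CtsK2*, a cathepsin-like protease gene, had 6885, 1317 and 1751 normalized counts in *pri* mutants, against 349.7, 342 and 423 in *ken* mutants (log2 fold change 3.14). Of these, *CtsK2* was the one in which a single sample, *pri* 1, stood far above the rest of its mutant. *CG42822*, *CG17298*, *CG34301*, *CG32074* and *CG32640*, genes with a number for a name, had log2 fold changes of 3.65, 3.63, 3.34, 3.27 and 4.33. *Lcp1*, *Lcp2*, *Lcp4* and *Drsl4* completed the 12 largest.

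Among the 12 with the largest decrease, *Cpr67Fa1* and *Drsl5* were given above. *CG18853* had 0, 2.12 and 7.32 normalized counts in *pri* mutants, against 135, 146 and 157 in *ken* mutants (log2 fold change −5.47 ± 0.68, adjusted p = 0.0081, edgeR). *CG15370* had 14.9, 41.3 and 23.01 normalized counts in *pri* mutants, against 429, 820.2 and 510.4 in *ken* mutants (log2 fold change −4.48 ± 0.42, adjusted p = 0.00343, edgeR). *CG13728* had 38.97, 38.2 and 57.5 normalized counts in *pri* mutants, against 742, 291 and 864 in *ken* mutants (log2 fold change −3.84 ± 0.45, adjusted p = 0.00653, edgeR). *Muc96D*, a mucin-like gene, had 12.6, 3.18 and 19.9 normalized counts in *pri* mutants, against 265, 71.6 and 182 in *ken* mutants (log2 fold change −3.87 ± 0.70, adjusted p = 0.027, edgeR). *CG30375*, *CG44040*, *CR43105*, *CG12310*, *CG18754* and *CG12224* had log2 fold changes of −5.37, −4.64, −4.50, −4.13, −3.75 and −3.62. In *CG12310*, *CG44040* and *Muc96D* the *ken* samples differed widely, with *ken* 2 the lowest. Of the 24 genes, calls were lost for *CG32640* (without *pri* 2 or 3 or *ken* 1, with the robust spread, adjusted p = 4.66e-08 to 0.119 over the alternatives), *CtsK2* (without *pri* 3 or *ken* 1 or 2 or 3, with the robust spread, adjusted p = 0.000384 to 0.142 over the alternatives), *CG30375* (without *pri* 2 or 3 or *ken* 1 or 3, without both samples 1, adjusted p = 3.27e-09 to 0.0812 over the alternatives), *CG44040* (without *pri* 2 or *ken* 3, adjusted p = 3.33e-11 to 0.0636 over the alternatives), *CG12310* (without *pri* 3 or *ken* 3, with the robust spread, adjusted p = 2.06e-07 to 0.0566 over the alternatives) and *Muc96D* (without *pri* 2 or 3 or *ken* 1 or 3, without both samples 1, adjusted p = 9.51e-08 to 0.0943 over the alternatives).

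Over the chromosome arms, genes called higher made up 1.63% of those tested on X, 2.16% on 2L, 2.53% on 2R, 2.0% on 3L and 2.37% on 3R. Genes called lower made up 2.66% on X, 1.74% on 2L, 2.46% on 2R, 3.28% on 3L and 3.81% on 3R. Leaving out the windows around *ken* and *Nsf2*, the shares were 2.17% higher and 2.41% lower on 2R and 2.35% and 3.66% on 3R. The differences were thus spread over all large arms, with the highest share of lower genes on 3R, which carries *pri* and the Osiris cluster, and no share was tested.

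**Figure D5:**
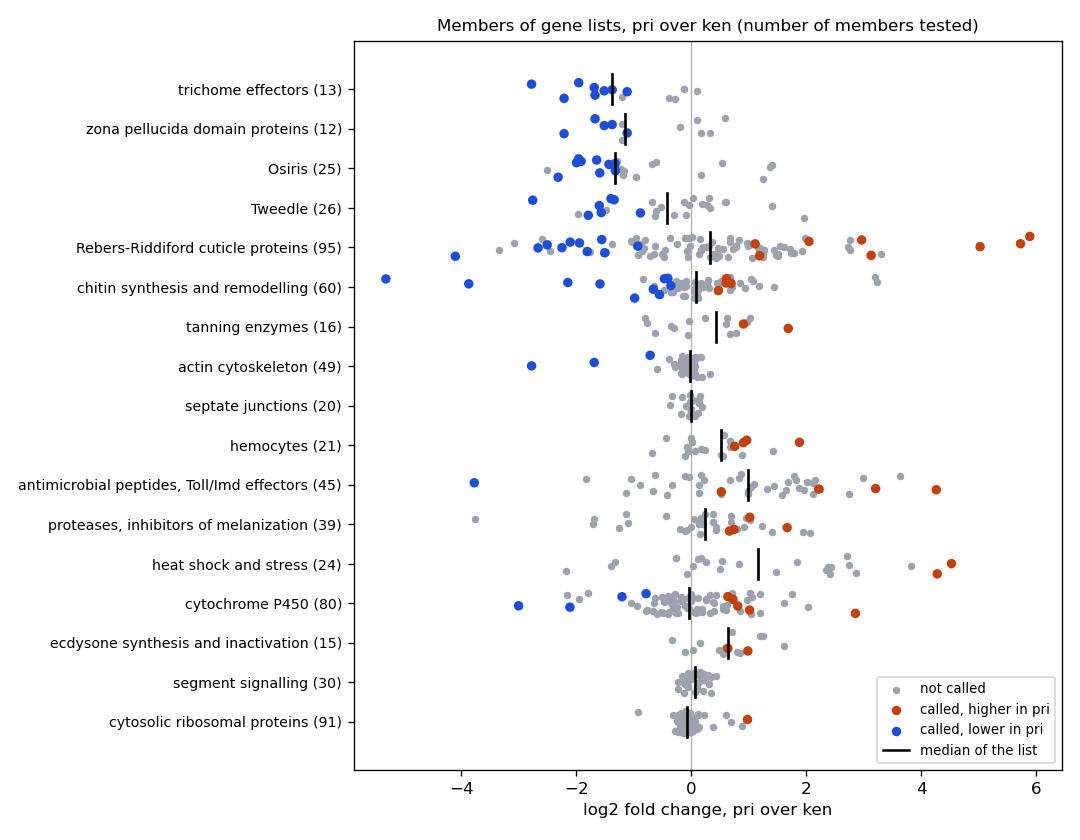
Each point is one member of a gene list (rows, with the number of members tested) at its log2 fold change of *pri* over *ken* (x axis), orange if called higher in *pri*, blue if called lower and grey if not called, with black bars at the medians. Trichome effectors, zona pellucida domain proteins and Osiris genes lie mostly left of 0 (medians −1.38, −1.16 and −1.32), the Rebers-Riddiford family spreads to both sides, and segment signalling and ribosomal proteins stay near 0.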

How the data were processed

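Polyadenylated RNA of 200 stage 16 embryos per sample was sequenced in paired ends with a strand-specific kit. The authors mapped reads to the genome build dm6 using STAR 2.6.1d, counted them per FlyBase gene and deposited whole counts, of which the genes with a total above 1 are kept. They also deposited signal values, here called normalized counts, which are these counts divided by the DESeq2 1.32.0 size factor of the sample (checked, largest relative difference 5.12e-10). The submitters' notes name mouse genome builds, which the gene identifiers contradict. Of 15228 genes, 15159 were matched by identifier to the Ensembl release 115 annotation of the same build for symbols and positions.

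The 3 *pri* and 3 *ken* samples were compared in edgeR 4.0.16 (with limma 3.58.1, R 4.3.3) by the quasi-likelihood test with TMM factors and no further filter. Standard errors were obtained by dividing the absolute log2 fold change by the root of the F statistic. The study's methods state no test of *pri* against *ken*. Labels name the samples by number, and nothing in the labels says that these are separate cultures. The paper's methods call the 3 samples of each condition independent, without saying in what way. The p-values measure the spread between these samples. Samples of the same number were taken as a block in an alternative fit, because their deviations from the genotype means correlated above 0.1 in all 3 pairs, although *pri* 3 correlated better with *ken* 2 (0.371). The other alternatives were DESeq2 1.42.0, RLE factors, library totals, a fit of all 9 samples, filterByExpr, a minimum of 10 counts in 3 samples, a robust estimate of the spread, a fold of at least 2, and leaving out each sample or both samples 1.

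The members and gene lists (51, and 2 added after values were seen) were chosen with earlier results of these data known. Lists are described by counts of called members and medians, without a test of the list. The genes named were *ken*, called genes within 100 kb of *ken* or *Nsf2* (4 on each side), the 12 largest changes in each direction among called genes without overlap that averaged 50 or more normalized counts, up to 4 called members of each list by adjusted p (2 by p where none was called), and genes the paper names. Other called or well-known members of a list were named after their values were seen. The fit was tested on simulated data with 200 changed genes, drawn from those with a mean of at least 50 counts. Genes were simulated independently, without the deviations that genes of a sample share in the data. The rates therefore need not hold for genes with fewer counts or for the data themselves. In this simulation the fit recovered 50.7% of the genes changed by 1 on the log2 scale and 98.5% of those changed by 2. It also called 13 unchanged genes. The control samples entered only the fit of all 9 samples. Promoter sequences were not used here.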

Additional observations from a re-analysis of the deposited data

How the results depend on the processing

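Of 159 genes chosen by the naming rule 123 were called. These 123 kept their direction in all alternatives in which they were tested, and 68 kept their call in each. Of genes given without a call, *Ubr3* and *crq* changed sign with RLE factors, library totals and other settings, and *Cpr47Eb*, *Drs*, *Hml*, *Osi1*, *Osi21*, *ple*, *Pxn*, *Socs36E*, *srp* and *zye* changed sign when samples were left out. The counts of genes called depended on the fit. Against 324 higher and 428 lower, DESeq2 called 653 and 667, all 9 samples in one fit 614 higher (and 624 lower), and the replicate block 728 and 757, while a fold of at least 2 left 187 higher. Leaving out 1 sample gave 96 to 335 higher and 147 to 373 lower, lowest without *ken* 3 and highest without *pri* 1. Normalization, the filters and the robust spread moved the counts by less than 1.5 times. Of the genes called, 313 higher and 415 lower were also called by DESeq2. With 3 samples a group and totals of 21310155 to 28859395 counts, a gene that was not called is not shown to be equal in the mutants. The search of promoters for motifs was not run.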

Other observations

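A further pair of gene groups was chosen after their values were seen, so that no test of the groups was made. Of 24 genes for making, carrying or degrading juvenile hormone or responding to it, 1 was higher and 4 were lower in *pri* mutants. These were 4.17% and 16.7%, against 2.14% and 2.83% of all genes. *jhamt*, the methyltransferase of the last steps of its synthesis, had 123, 69.9 and 104 normalized counts in *pri* mutants, against 26.3, 28.4 and 36.5 in *ken* mutants (log2 fold change 1.68 ± 0.28, adjusted p = 0.0213, edgeR). The epoxide hydrolase genes *Jheh1* and *Jheh2*, neighbours on 2R whose products degrade the hormone, had log2 fold changes of −0.99 ± 0.11 and −1.98 ± 0.30. *Jhbp4*, named for juvenile hormone binding, had 149, 193 and 178 normalized counts in *pri* mutants, against 496, 812 and 627 in *ken* mutants (log2 fold change −1.91 ± 0.20, adjusted p = 0.00546, edgeR), and *JhI-26*, induced by the hormone, a log2 fold change of −1.07. Lost were the calls of *jhamt* (without *pri* 3 or *ken* 1 or 2 or 3, without both samples 1, adjusted p = 7.67e-05 to 0.0823 over the alternatives) and *Jheh2* (without *pri* 2 or 3, adjusted p = 1.28e-09 to 0.0584 over the alternatives), *JhI-26* was not called without *ken* 2, *ken* 3, *pri* 2 or *pri* 3, and the number lower was 2 without *pri* 2 or *pri* 3.

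Of 7 genes that break down branched-chain amino acids in mitochondria, 5 were higher in *pri* mutants (71.4%, against 2.14% of all genes) and none lower. All 7 had a log2 fold change above 0 (median 0.74). *Dbct*, the transacylase of the branched-chain keto acid dehydrogenase complex, had 2628, 2051 and 1987 normalized counts in *pri* mutants, against 794, 780.2 and 869 in *ken* mutants (log2 fold change 1.43 ± 0.13, adjusted p = 0.00339, edgeR). *BckdhA* and *BckdhB*, further subunits of that complex, had log2 fold changes of 0.74 and 0.40, and *Mccc1* and *Mccc2*, the subunits of methylcrotonyl-CoA carboxylase, of 0.85 and 0.96. The summed level of the 7 genes was 12955 to 16637 normalized counts in *pri* and 8016 to 8614 in *ken* mutants. The number called was 1 without *ken* 3, 2 without *ken* 1, and 3 without *ken* 2, *pri* 2 or *pri* 3.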
